A study of Mus musculus with 7 samples.

Results

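The genes described here encode nuclear subunits of the mitochondrial respiratory chain and ATP synthase. They were chosen by symbol, as every listed gene whose name marks it as an Nduf, Sdh, Uqcr, Cox4 to Cox8 or Atp5 subunit, and 80 of the 12771 genes in the count table met that rule. By symbol, 38 belong to complex I, 4 to complex II, 7 to complex III, 14 to complex IV and 17 to complex V. RNA was sequenced from cancer-associated fibroblasts (CAFs) of pancreatic tumors, to ask how Brca2 in the cancer cells affects the fibroblasts around them. KPC cells, a mouse pancreatic cancer line, were injected into the pancreas of male C57BL/6 mice (C57BL/6 J in the study's methods) aged 8 weeks, and tumors were taken after 2 to 3 weeks. The 3 shControl libraries (replicates 1, 2 and 4) came from tumors of KPC cells with a non-targeting hairpin, and the 4 shBrca2 libraries (replicates 1 to 4) from tumors of KPC cells with a lentiviral hairpin against Brca2. The hairpin was in the cancer cells and not in the sorted fibroblasts. The sort kept podoplanin-positive cells that lacked CD45, CD31 and EpCAM, and their poly(A) RNA was read at the 3′ end by a variant of MARS-seq.

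The respiratory chain passes electrons from NADH and succinate to oxygen and stores the energy as a proton gradient across the inner mitochondrial membrane. Complex I takes electrons from NADH, complex II from succinate, complex III passes them to cytochrome c, complex IV passes them to oxygen, and complex V uses the gradient to make ATP. Most subunits are made in nearly every cell, but a few have paralogues whose use varies with tissue or oxygen. Cox4i2 replaces Cox4i1 in complex IV of lung and pericytes and responds to low oxygen, and Ndufa4l2 is a hypoxia-inducible relative of Ndufa4, a protein first assigned to complex I and now placed with complex IV.

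Total counts ran from 1898679 to 5990579 per library. Of the 80 genes, 79 had a mean normalized count over 5, and Ndufa11, an accessory subunit of complex I, had 3.66 and was too low to be read. Ndufs5-ps is a transcribed pseudogene that the rule takes by its name. None of the 13 subunits encoded by mitochondrial DNA was in the table, and they were not analysed here. Fibroblast markers summed to 145000 to 164000 normalized counts in shControl and 118000 to 141000 in shBrca2 libraries, which did not overlap. None of the 12 was at 0 in any library, and 2 of them, Dcn and Lum, were called lower in shBrca2 CAFs by the rule given below. Over all genes that rule called 3.77% higher and 5.27% lower. The 8 epithelial markers, keratins among them, summed to 416 to 1170 in shControl and 1480 to 2070 in shBrca2 libraries. Of these, 4 were called higher (Krt7, Krt8, Krt18 and Krt19) and none lower. The 7 immune markers summed to 306 to 321 in shControl and 401 to 447 in shBrca2 libraries, with 2 called higher (C1qa and Csf1r) and 1 lower (Jchain). Acinar markers summed to 177 to 290 in shControl and 102 to 171 in shBrca2 libraries, and striated muscle markers to at most 70.8 in any library. Of the 9 acinar markers 4 were called lower and 1 higher. The 2 erythroid markers in the table, Alas2 and Slc4a1, summed to 3.42 to 10.7 in shControl and 45.5 to 92.1 in shBrca2 libraries. Of these only Alas2 had a mean normalized count over 5, and it was called higher. Sums of smooth muscle (2680 to 4900 and 3210 to 5330) and mesothelial markers (907 to 2920 and 2400 to 2900) overlapped between the groups. So did those of endothelial (101 to 153 and 144 to 214) and brown fat markers (159 to 299 and 167 to 224). Single genes of these lists were still called. Acta2 of smooth muscle (log2 fold change 1.07), Krt19 of the mesothelial list and endothelial Flt1 were higher, and Dio2 of brown fat (-1.61) was lower. In 3 of the 5 endothelial markers every shBrca2 library was below every shControl library, against 9.29% of all genes. The part of these cells in the results below was not tested. In bulk RNA, fewer cells of a type and less RNA per cell cannot be told apart. By the study's account each library came from a separate mouse, so p-values measure the spread between mice of 1 experiment.

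Most of the chain differed little between the groups. Of the 80 genes, 2 rose in shBrca2 CAFs, Ndufa4l2 and Cox4i2, and none fell (DESeq2, adjusted p under 0.1, absolute log2 fold change over 0.5 and mean normalized count over 5). Over the whole table the same rule called 9.04% of genes, 3.77% as higher and 5.27% as lower, and a count of 2 of 80 is not above that background. Without an adjustment, 3 subunit genes had p under 0.05 in DESeq2 and in edgeR, all 3 of them higher in shBrca2. That threshold was passed by 17.7% of all genes in DESeq2 (8.04% as higher) and by 20.6% in edgeR (9.21% as higher). The edgeR quasi-likelihood test called 1 of the 80, Ndufa4l2, and none lower, and called 8.75% of all genes. At any fold change, 3 subunit genes had an adjusted p under 0.1, against 9.52% of all genes, and the one added was Cox5a. In 4 subunit genes every shBrca2 library was above every shControl library (Ndufa4l2, Cox4i2, Cox5a and Uqcrfs1), against 7.78% of all genes. In none was every shBrca2 library below every shControl library, against 9.29%.

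The fold changes of the other subunits could be bounded. For 53 of the 79 genes the 95% interval of the log2 fold change lay wholly between -0.5 and 0.5, while this held for 13.5% of the 11632 genes whose mean normalized count was over 5 and for 31.3% of the 4625 genes with a mean over 100. Over the subunit genes the median of the log2 fold changes was 0.10, with 54 above 0 and 25 below, and a median standard error of 0.17. All 11632 genes had a median of 0.00, quartiles of -0.26 and 0.27, and a median standard error of 0.28. Leaving out Ndufa4l2, Cox4i2 and the pseudogene, the other 76 genes ran from -0.30 to 0.51 with a median of 0.09. The median depended on 1 library: without shControl replicate 4 it was 0.02.

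**Figure D1:**
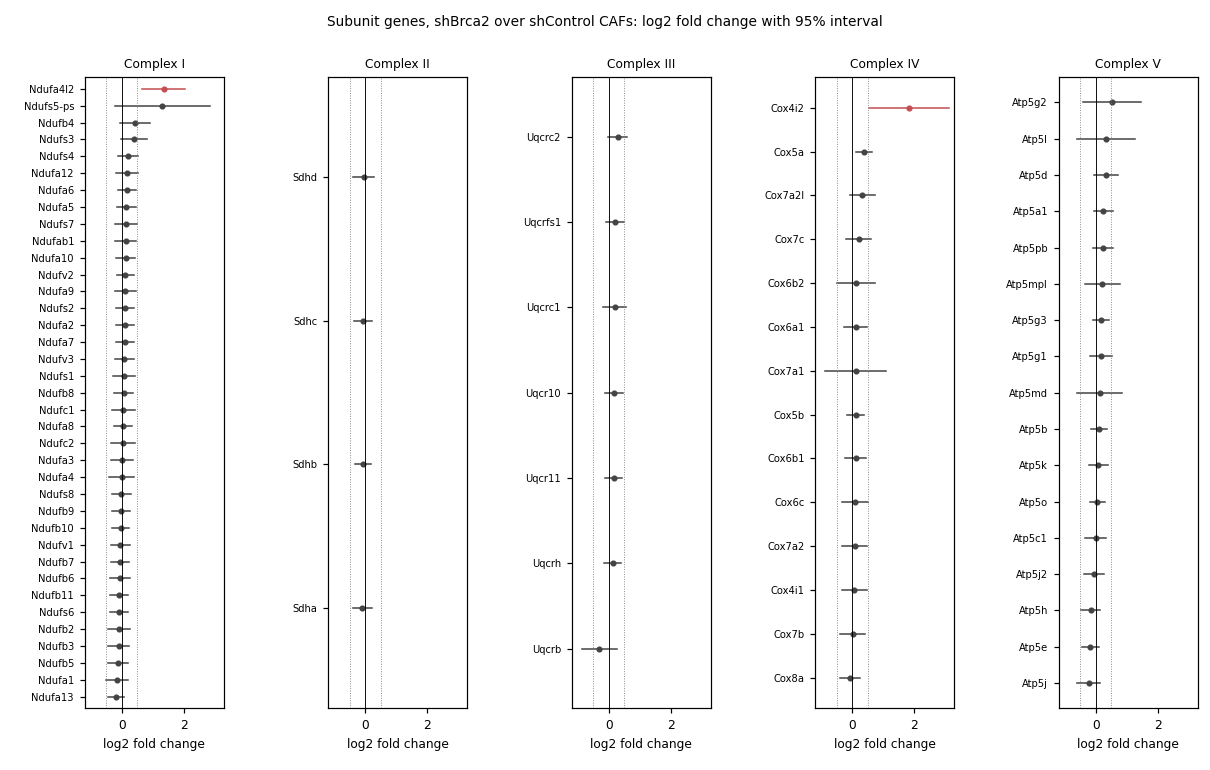
Log2 fold change of shBrca2 over shControl CAFs (x axis, with 95% intervals) for the 79 subunit genes whose mean normalized count was over 5, one row a gene and one panel a complex; called genes are red and dotted lines mark -0.5 and 0.5. Ndufa4l2 at 1.35 and Cox4i2 at 1.84 are the 2 called genes, and the pseudogene Ndufs5-ps at 1.31 has an interval that crosses 0.

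Ndufa4l2 was the subunit gene with the smallest p. In shControl libraries 1, 2 and 4 it had 164.0, 526.3 and 172.2 normalized counts, and in shBrca2 libraries 1 to 4 it had 716.8, 859.2, 583.8 and 769.4. Every shBrca2 library lay above every shControl library, but shControl replicate 2 came close to the lowest shBrca2 library. Its log2 change was 1.35 (standard error, SE, 0.35, DESeq2 adjusted p = 0.0067), a fold of 2.56 with a 95% interval of 1.58 to 4.14. It was called in each of 15 alternative analyses, with log2 values between 1.07 and 2.13 and adjusted p between 5.01e-17 and 0.051. The controls moved the value most, to 2.13 when shControl replicate 2 was left out and to 1.07 when shControl replicate 1 was. Ndufa4l2 lies at chr10:127509274-127517154 in GRCm38.p6, a span that overlaps Shmt2 on the other strand. In GENCODE vM39, an annotation of a later build, 727 of its 1148 exon bases, the 3′ end among them, are also exon of Shmt2. Whether counting used strand was not stated, so reads of the pair may not be separable. Shmt2, a mitochondrial enzyme of serine and glycine metabolism, had a log2 fold change of 0.27 (SE 0.23, DESeq2 adjusted p = 0.63).

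Ndufa4, the general member of the pair, had 245, 156.9 and 189.7 normalized counts in shControl and 189.3, 204.6, 224.5 and 172.8 in shBrca2 libraries. The groups overlapped throughout, and the log2 fold change was -0.01 with a 95% interval of -0.41 to 0.40. The share of Ndufa4l2 in the summed counts of the pair was 40.1%, 77.0% and 47.6% in shControl libraries and 79.1%, 80.8%, 72.2% and 81.7% in shBrca2 libraries. Exact binomial 95% intervals, which cover counting error only, were 35.7% to 44.6% in shControl replicate 1 and 73.3% to 80.5% in shControl replicate 2, so these controls differed beyond counting error. In log2 form the ratio averaged 0.34 ± 1.23 (SD, n = 3) in shControl and 1.88 ± 0.35 (SD, n = 4) in shBrca2 CAFs. The difference of 1.54 had a two-sided p of 0.057 by an exact permutation test, since 2 of the 35 divisions of the libraries gave an absolute difference at least as large. The smallest p this design allows is 0.029. The groups overlapped, because shControl replicate 2 at 1.74 was above shBrca2 replicate 3 at 1.37.

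Cox4i2, the oxygen-responsive form of subunit 4 of complex IV, rose from a very low level. Raw counts were 0, 9 and 5 in shControl and 26, 27, 7 and 21 in shBrca2 libraries, and normalized counts were 0, 11.4 and 4.86 against 22.4, 15.7, 12.1 and 21.3. The normalized counts did not overlap, with the highest control at 11.4 and the lowest shBrca2 library at 12.1. The log2 fold change was 1.84 (SE 0.66, DESeq2 adjusted p = 0.074), a fold of 3.57 with a 95% interval of 1.45 to 8.78. The call rested on single libraries. It held in 8 of the 15 alternatives and was lost with edgeR (adjusted p = 0.11) and when any 1 of shControl replicates 1 and 4 and shBrca2 replicates 1, 2 and 4 was left out. Without shControl replicate 1, the library with no count, the log2 fold change was 1.19 (DESeq2 adjusted p = 0.41), and without shControl replicate 2 it was 2.96. The gene lies at chr2:152753916-152765039 in GRCm38.p6, where its span overlaps Bcl2l1 and Gm32057. In GENCODE vM39 none of its 1341 exon bases is exon of another gene.

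Cox4i1, the general form of subunit 4, had 2542, 1938 and 2135 normalized counts in shControl libraries and 1904, 1944, 3092 and 2303 in shBrca2 libraries. Its log2 fold change was 0.07 (SE 0.21), and both the lowest and the highest library belonged to shBrca2. Cox4i2 made up 0%, 0.584% and 0.227% of the counts of the pair in shControl and 1.16%, 0.803%, 0.39% and 0.918% in shBrca2 libraries. The count of 0 in shControl replicate 1 allowed a share of up to 0.124% by the exact binomial 95% interval. Cox4i1 thus held nearly all counts of the pair in each library of both groups. The log2 ratio averaged -9.11 ± 2.20 (SD, n = 3) in shControl and -6.94 ± 0.62 (SD, n = 4) in shBrca2 CAFs. The difference of 2.17 had an exact permutation p of 0.057 (two-sided), again from 2 of the 35 divisions, and the groups overlapped.

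**Figure D2:**
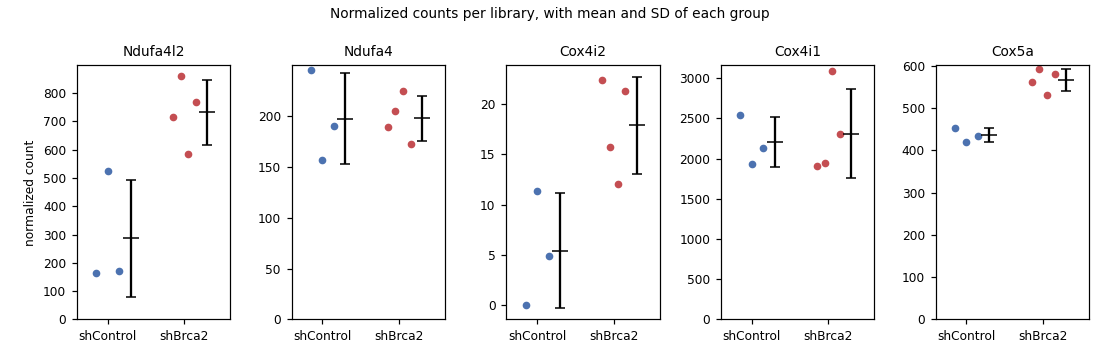
Normalized counts (y axis, a separate scale in each panel) of Ndufa4l2, Ndufa4, Cox4i2, Cox4i1 and Cox5a, one point a library, with the mean and SD of each group beside the points. The shBrca2 libraries lie above all controls for Ndufa4l2, Cox4i2 and Cox5a and overlap them for Ndufa4 and Cox4i1, and shControl replicate 2 at 526.3 is far above the other controls for Ndufa4l2.

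The other genes of complex IV, the oxidase that reduces oxygen, moved less. Cox5a, a nuclear subunit of the general enzyme, had 453.6, 420.0 and 434.8 normalized counts in shControl and 561.1, 592.2, 531.9 and 580.4 in shBrca2 libraries. The groups were separate and the spread within each was narrow. Its log2 fold change of 0.38 (SE 0.13, DESeq2 adjusted p = 0.064), was under the fold threshold, and a fold of 1.30 had a 95% interval of 1.08 to 1.56. In the 15 alternatives its log2 fold change ran from 0.35 to 0.49 and its adjusted p from 0.017 to 0.56, and the edgeR adjusted p was 0.14. In GENCODE vM39, 1727 of its 4173 exon bases, the 3′ end among them, are exon of Gm26631 on the other strand, which is a gene not analysed here. As the use of strand in counting was not stated, reads of Cox5a and Gm26631 may not be separable. The other paralogue groups of complex IV gave no call. Cox6a1, Cox6b1 and Cox7a2, the general forms, had log2 fold changes of 0.11, 0.10 and 0.07, and Cox6b2, known from testis, and Cox7a1, known from muscle, had 0.11 and 0.11. Cox7a1 had a mean of 15.1 normalized counts and a 95% interval of -0.88 to 1.09, so its change was not bounded more closely than that. Cox7a2l, which helps complexes III and IV join into supercomplexes, had 0.32 (SE 0.21, DESeq2 adjusted p = 0.46).

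Complex I, the largest of the chain, showed a median of 0.06 in log2 fold change across 37 genes, with 30 intervals inside -0.5 to 0.5. The 7 listed core subunits of the matrix arm, which carry the flavin and iron-sulfur clusters, had a median of 0.11. The 10 accessory subunits of that arm had 0.12, and the 17 readable accessory subunits of the membrane arm -0.04. None of these modules held a called gene. Ndufs3, a core subunit, had the smallest p among them, with 109.3, 149.3 and 121.6 normalized counts in shControl and 149.7, 183.6, 133.0 and 191.1 in shBrca2 libraries. The groups overlapped, and its log2 fold change was 0.39 (SE 0.21, DESeq2 adjusted p = 0.34). Ndufa13 and Ndufa7, the complex I genes with the highest counts, had log2 fold changes of -0.19 and 0.09. The pseudogene Ndufs5-ps had 95.5 and 139.9 normalized counts in shBrca2 replicates 1 and 3 but 26.8 and 27.4 in replicates 2 and 4, against 37.6, 36.7 and 12.6 in shControl. Its log2 fold change of 1.31 was not called (SE 0.78, DESeq2 adjusted p = 0.42), and it was called only when shBrca2 replicate 2 or shBrca2 replicate 4 was left out.

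Complex II, succinate dehydrogenase, which also serves the tricarboxylic acid cycle, had the narrowest range of the 5 complexes. Its catalytic subunits Sdha and Sdhb had log2 fold changes of -0.09 and -0.07 and its membrane anchors Sdhc and Sdhd -0.06 and -0.05, and all 4 intervals lay between -0.5 and 0.5. Sdhb had 913, 1042 and 963 normalized counts in shControl and 982, 963, 845 and 917 in shBrca2 libraries, which overlapped. With total counts as the scale the same 4 values were 0.02, 0.05, 0.06 and 0.07, so their sign depended on the scale. Total counts moved the median of all genes to 0.12, and relative to that shift these genes stayed below the median.

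Complex III, which passes electrons to cytochrome c, showed a median of 0.17 across 7 genes, 6 of them above 0 and none called. Uqcrc2, a core protein, had 353.6, 301.1 and 332.7 normalized counts in shControl and 457, 395.2, 348.9 and 397.4 in shBrca2 libraries. The groups overlapped at a single library of each, and the log2 fold change was 0.28 (SE 0.16, DESeq2 adjusted p = 0.37). Uqcrfs1, the Rieske iron-sulfur protein, had 381.8, 378.3 and 364.8 against 410.5, 443.6, 385.1 and 480.8. Its groups did not overlap, but its log2 fold change was 0.20 (SE 0.15, DESeq2 adjusted p = 0.55). Uqcrh and Uqcr10, small accessory subunits with the highest counts of the complex, had 0.13 and 0.17.

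Complex V, the ATP synthase, showed a median of 0.13 across 17 genes and no call. The 5 genes of the catalytic head and central stalk had a median of 0.10, the 3 genes of the c ring 0.17, the 5 membrane accessory genes 0.13 and the 4 genes of the peripheral stalk -0.06. Atp5d, a subunit of the central stalk, had 2247, 2772 and 2243 normalized counts in shControl and 3014, 3691, 2188 and 3142 in shBrca2 libraries. The lowest of all 7 libraries was shBrca2 replicate 3, and the log2 fold change was 0.32 (SE 0.20, DESeq2 adjusted p = 0.44). Atp5a1 and Atp5b, the alpha and beta subunits of the head, had 0.24 and 0.10. Atp5g1, Atp5g2 and Atp5g3 encode the same mature c subunit, and had log2 fold changes of 0.17, 0.51 and 0.17, where Atp5g2 had a mean of 18.6 normalized counts and a 95% interval of -0.43 to 1.45.

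Across libraries the subunit genes were lowest most often in 1 control, shControl replicate 4. All subunit genes took 1.73%, 1.66% and 1.49% of the counts of the shControl libraries and 1.85%, 1.78%, 1.84% and 1.96% of those of the shBrca2 libraries. A mean level was also formed in each library as the mean over the genes of log2(normalized count + 1), with each gene centred on its mean over the 7 libraries. On this scale the shControl libraries had -0.02, -0.01 and -0.21, and the shBrca2 libraries 0.03, 0.08, 0.08 and 0.06. Without Ndufa4l2, Cox4i2 and the pseudogene the shControl libraries had 0.05, -0.02 and -0.17, and the shBrca2 libraries -0.01, 0.06, 0.05 and 0.04. The groups then overlapped on this scale. As a share of counts without these genes, the shControl libraries had 1.724%, 1.641% and 1.48%. The shBrca2 libraries had 1.823%, 1.755%, 1.822% and 1.93%, which did not overlap the controls. shControl replicate 4 was the lowest of the 7 libraries in 38 of the 79 genes and the highest in 3, while shControl replicate 1 was the highest in 22. Complex II went against this: shControl replicate 4 had its highest mean level, 0.11, and shBrca2 replicate 3 its lowest, -0.16.

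**Figure D3:**
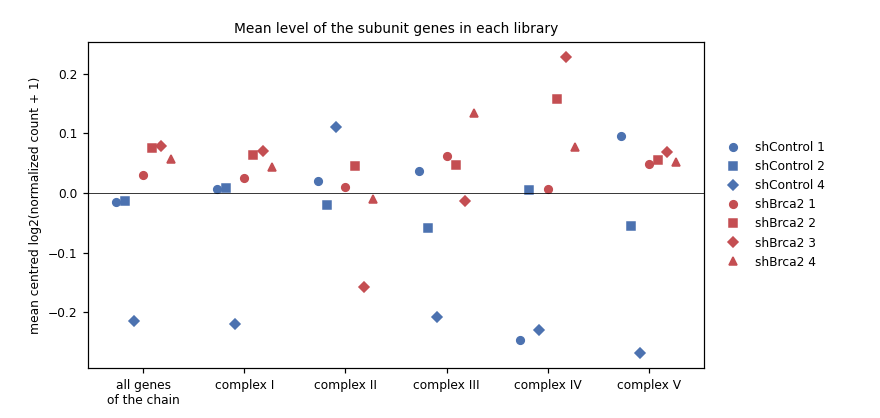
Mean centred log2(normalized count + 1) of the subunit genes (y axis), for all of them and by complex (x axis), one point a library. shControl replicate 4 is lowest for all genes together (-0.21), complex I (-0.22), complex III (-0.21) and complex V (-0.27), and highest for complex II (0.11). Ndufa4l2, Cox4i2 and the pseudogene are included, and without them the groups overlap on this scale for all genes together.

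Promoter sequence was available for 66 of the 80 genes, in 71 windows of 250 bases before to 50 after an annotated start (RefSeq, GRCm38.p6). Ndufa4l2, Cox4i2 and Cox4i1 were not among them. Short motifs of factors known from these genes were searched on both strands. TGCGCA, part of the site of nuclear respiratory factor 1 (NRF1), which reads the same on both strands, was in 25.4% of the 71 windows and in 7.76% of all 32851 windows. The ETS site CCGGAAG, the core bound by GABP, was in 23.9% against 8.86%, and the YY1 site AAGATGG in 15.5% against 6.34%. ACGTG, the core bound by hypoxia-inducible factors, was in 23.9% against 19.6%. None of these motifs contains another, and a match describes letters and not binding. The 250 bases before an annotated start of Cox6a1 are shown because they hold 2 of these motifs. Those of Cox5a are shown because it had the next smallest adjusted p after Ndufa4l2, and those of Ndufa4 as the general partner of Ndufa4l2. The Cox5a bases lie before an annotated start inside its span of chr9:57517328-57532427, and not before the first base of that span. The sequences are written 5′ to 3′ on the strand of the gene with motif matches in capitals.
Cox6a1, chr5:115348959-115349208, minus strand: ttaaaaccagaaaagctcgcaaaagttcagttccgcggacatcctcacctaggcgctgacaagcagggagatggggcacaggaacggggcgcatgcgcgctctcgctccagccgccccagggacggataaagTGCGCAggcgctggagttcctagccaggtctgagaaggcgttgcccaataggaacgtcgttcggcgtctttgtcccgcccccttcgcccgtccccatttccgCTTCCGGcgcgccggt
Cox5a, chr9:57520982-57521231, plus strand: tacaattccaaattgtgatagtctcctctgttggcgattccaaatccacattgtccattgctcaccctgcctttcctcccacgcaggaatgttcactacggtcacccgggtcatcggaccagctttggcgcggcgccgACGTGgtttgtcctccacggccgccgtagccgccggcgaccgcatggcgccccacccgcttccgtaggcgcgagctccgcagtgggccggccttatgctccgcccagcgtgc
Ndufa4, chr6:11907451-11907700, minus strand: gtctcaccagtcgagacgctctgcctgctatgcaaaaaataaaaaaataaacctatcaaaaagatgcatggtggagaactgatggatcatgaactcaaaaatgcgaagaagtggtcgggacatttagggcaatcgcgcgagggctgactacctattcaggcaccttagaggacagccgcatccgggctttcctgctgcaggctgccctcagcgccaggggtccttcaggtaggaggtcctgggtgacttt
Cox6a1 held the NRF1 letters and, as its reverse complement CTTCCGG, the ETS site, and its log2 fold change was 0.11. The Cox5a bases, from inside the gene's span, held ACGTG once, and Ndufa4 held none of the 4 motifs.

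Few genes that build or feed the chain were called. Over all genes DESeq2 called 9.04% (3.77% as higher and 5.27% as lower), edgeR called 8.75%, and 17.7% had an unadjusted DESeq2 p under 0.05. Of 45 listed assembly factors none was called in either direction (DESeq2 or edgeR), and their median log2 fold change was -0.09, with 1 gene at an unadjusted DESeq2 p under 0.05. Foxred1, an assembly factor of complex I, was that gene, at -0.54 (SE 0.24, DESeq2 adjusted p = 0.19). None of 18 enzymes of the tricarboxylic acid cycle was called (median 0.04, 1 with an unadjusted p under 0.05), and none of 22 genes of mitochondrial protein import (median 0.18, 2 with an unadjusted p under 0.05). None of 74 mitochondrial ribosomal proteins was called (median 0.08, 0 with an unadjusted p under 0.05). edgeR called none in these lists either. Of 7 other genes of the chain, such as Cyc1, which encodes cytochrome c1 of complex III, none was called, with a median of -0.10. Cyc1 itself had 0.11 (SE 0.15.) Among 22 regulators of mitochondrial biogenesis 1 fell and none rose. Myc, which drives growth and mitochondrial genes, fell by 1.64 in log2 units (SE 0.54, DESeq2 adjusted p = 0.040), and its normalized counts were 1672, 556.6 and 1923 in shControl and 279.7, 602.1, 588.9 and 312.0 in shBrca2 libraries, which overlapped at shControl replicate 2.

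Glycolysis and hypoxia genes had higher medians than any complex. Of 15 glycolytic enzymes 2 rose and none fell, 14 had a log2 fold change above 0, and the median was 0.47. Over all genes 3.77% were called higher and 5.27% lower, and 50.3% of genes with a mean over 5 had a log2 fold change above 0. Eno2, the neuronal enolase, rose by 0.59 (SE 0.18, DESeq2 adjusted p = 0.027), and Tpi1, triosephosphate isomerase, by 0.64 (SE 0.23, DESeq2 adjusted p = 0.065). Ldha, which turns pyruvate to lactate, had 0.44 (SE 0.18, DESeq2 adjusted p = 0.14). Gapdh had 1286, 53.1 and 23.3 normalized counts in shControl and 979.3, 968.7, 43.2 and 63.0 in shBrca2 libraries, a split that ran across the groups, so its value of 0.18 says little. Of 15 hypoxia genes that bear on respiration, which share Ldha and Hk2 with the glycolysis list, 4 rose and 1 fell, with a median of 0.43. Egln3, an oxygen sensor that hypoxia-inducible factors induce, rose by 2.67 (SE 0.33), from 30.8, 101.2 and 81.7 normalized counts to 541.3, 338.1, 504.3 and 417.7. Bnip3, which promotes removal of mitochondria, rose by 1.67 and Slc2a1, the glucose transporter GLUT1, by 1.15. Mxi1, an antagonist of Myc, rose by 0.79. Epas1, which encodes HIF-2 alpha, fell by 1.33 (SE 0.27.) Pdk1, which restrains entry of pyruvate into the cycle, had 0.88 (SE 0.56) at a level of under 20 normalized counts in every library.

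**Figure D4:**
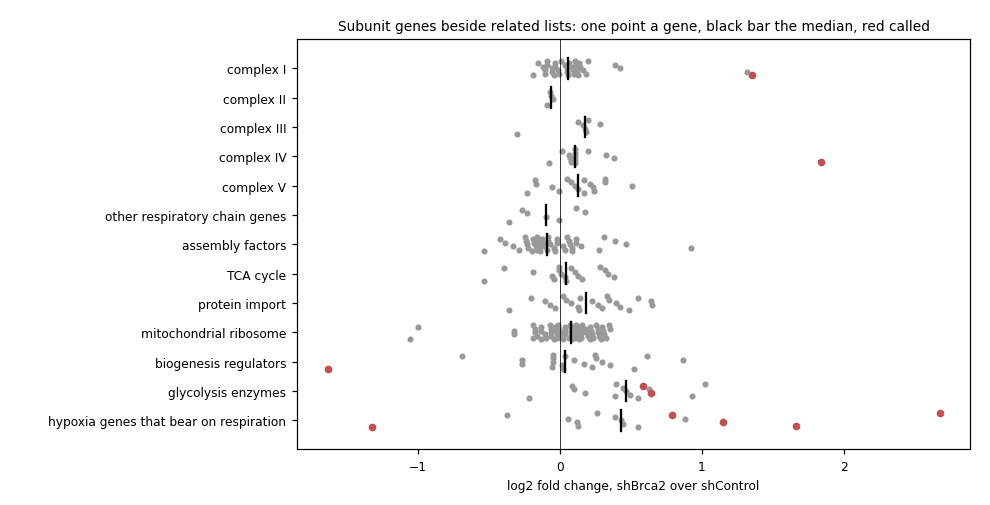
Log2 fold change of shBrca2 over shControl CAFs (x axis) for the genes of each complex and of the related lists (rows), one point a gene with a mean normalized count over 5; red points are called and black bars are medians. Complexes I to V have medians from -0.06 to 0.17, the glycolysis and hypoxia lists 0.47 and 0.43.

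Ndufa4l2 and Cox4i2 are also known from pericytes, the mural cells of small vessels, so pericyte genes were read beside them. The 11 listed pericyte markers, with Ndufa4l2 and Cox4i2 left out, summed to 2300 to 3210 normalized counts in shControl and 2510 to 3010 in shBrca2 libraries, and none was at 0 in any library. Pdgfrb had a mean of 1138 and Des of 768, while Gja4 had 15.6 and Rgs5 4.29, so the sums say little about the lower markers. Of the 11 markers 3 rose (Notch3, Des and Gja4), 2 fell (Vtn and Rgs4) and the median log2 fold change was 0.09. Over all genes 3.77% were called higher and 5.27% lower. Des, an intermediate filament protein of mural and muscle cells, had 344.2, 823.6 and 409.5 normalized counts in shControl and 1129, 1015, 775.5 and 880.2 in shBrca2 libraries. Cspg4, the proteoglycan NG2, had 34.2, 148.0 and 53.5 in shControl and 113.6, 58.9, 119.2 and 81.3 in shBrca2 libraries. Rgs5 had at most 8.86 normalized counts, in shControl replicate 2. The mean level of the pericyte markers was 0.30 in shControl replicate 2 against -0.25 and -0.25 in the other controls, and 0.15, 0.19, -0.12 and -0.02 in shBrca2 libraries. The mean level of the hypoxia genes was -0.35, -0.19 and -0.36 in shControl libraries and 0.25, 0.32, 0.25 and 0.07 in shBrca2 libraries. shControl replicate 2 was thus the control with the most Ndufa4l2, the most Cox4i2 and the highest level of both lists. This was not particular to them: it was also the highest control for the glycolytic enzymes (0.03 against -0.32 and -0.63), the smooth muscle markers (0.19 against -0.39 and -0.69) and the proliferation genes (0.28 against -0.59 and -0.51). The part of mural cells, of the hypoxia genes and of these other lists in the values of Ndufa4l2 and Cox4i2 was not tested.

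**Figure D5:**
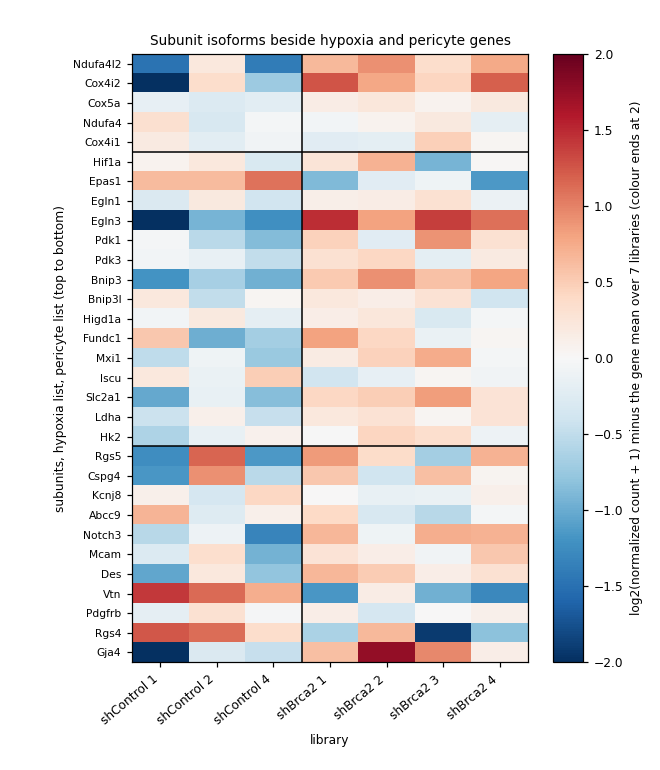
Log2(normalized count + 1) minus each gene's mean over the 7 libraries (colour, red higher), for 5 subunit genes (top block), the 15 hypoxia genes (middle) and the 11 pericyte markers (bottom), one column a library. Ndufa4l2, Cox4i2 and Cox5a are higher in every shBrca2 library than in any control. So are the hypoxia genes Egln3, Bnip3, Mxi1 and Slc2a1 and the pericyte markers Notch3 and Gja4. For Notch3 the margin is small, 72.3 normalized counts in shBrca2 replicate 2 against 72.1 in shControl replicate 2. Epas1 of the hypoxia list and Vtn of the pericyte list are lower in every shBrca2 library, so both lists move in both directions.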

How the data were processed

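The authors deposited raw whole-number counts for each gene symbol, in 1 table with a column for each of the 7 libraries. Per the labels' processing notes, reads passed through bcl2fastq, cutadapt, STAR 2.4.2a, HTSeq and DESeq2, with mm10 as the genome build. The annotation, strand setting and collapsing of molecular barcodes are not given in the sources used here, so counts may include PCR copies. Total counts of 1898679 to 5990579 set the counting precision.

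The counts were fitted as a whole table with DESeq2 1.42.0 (R 4.3.3): median-of-ratios size factors, a likelihood ratio test of the group, as in the study's methods, which name no covariate for it, and none was used, with Benjamini-Hochberg adjustment over 12768 genes. Fold changes are shBrca2 over shControl and unshrunken, with standard errors, and intervals are Wald 95% intervals. A gene was called at an adjusted p under 0.1, an absolute log2 fold change over 0.5 and a mean normalized count over 5. edgeR 4.0.16 (quasi-likelihood, TMM) was an alternative. Ratios were formed as log2((count + 1)/(count + 1)) and the groups tested by exact permutation (two-sided). The scripts were tested on simulated data.

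Genes were named by rule: called members, paralogue groups, all of complex II and, per complex, the 2 with the highest count and the 2 with the smallest p. Ndufs5-ps, Ndufa11 and the list genes named were picked after their values were seen. The members and lists were chosen with earlier results of these data known. Positions and promoters came from RefSeq GRCm38.p6 (mm10), in which 80 of 80 symbols were found. 26 of these spans overlap another gene, and 9 of the 80 have named pseudogenes that could share reads (Atp5c1, Atp5k, Atp5l, Atp5pb, Cox5b, Cox7c, Ndufa12, Ndufab1 and Uqcrh). Every pair of libraries differed by more than sampling noise (lowest mean chi-square per gene 3.01).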

Additional observations from a re-analysis of the deposited data

Results flagged for a closer look

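In 35 sets of 4 shBrca2 values (named genes, ratios and mean levels of the complexes), 2 had a library whose distance from its nearest neighbour, as a share of the whole range, was over Dixon's 95% critical value. Chance alone gives about 1 in 20. Cox7a2, a general subunit of complex IV, had 465.6 normalized counts in shBrca2 replicate 1 against 581.1, 587.2 and 584.4 in replicates 2 to 4, a share of 0.95. Uqcrh, an accessory subunit of complex III with named pseudogenes, had 1781 normalized counts in shBrca2 replicate 2 against 1508, 1527 and 1543 in replicates 1, 3 and 4, a share of 0.871. Neither gene was called.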

How the results depend on the processing

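Ndufa4l2 was called in all 15 alternatives and no subunit gene was called lower in any. 1 gene, Ndufa4l2, was called higher with edgeR, with an adjusted p under 0.05 and with the replicate block, and 1 to 2 when single libraries were left out. Same-numbered libraries did not deviate together (correlations -0.09, -0.13 and -0.14), so the block was not used further. The block gave 491 calls over all genes against 1154. It moved Ndufa4l2 to 1.67 and Cox4i2, which got no adjusted p, to 2.38, and gave -0.10 for Cox4i1, -0.0042 for Cox6b2 and -0.16 for Cox7a1. With total counts as the scale the median of all genes moved to 0.12, the subunit median to 0.21 and those of complexes I, II and III to 0.17, 0.0517 and 0.29. There Ndufa4 had 0.10, Sdha 0.0181, Sdhb 0.0481, Sdhc 0.0553 and Sdhd 0.065. The causes were not tested. Leaving out single libraries gave subunit medians of 0.0171 to 0.13. It turned the sign of 30 of the 79 subunit genes, among them 9 of the 28 named genes: Cox4i1 (-0.11 to 0.18), Cox6a1 (-0.0582 to 0.24), Cox6b1 (-0.0532 to 0.19), Cox6b2 (-0.13 to 0.31), Cox7a1 (-0.18 to 0.47), Cox7a2 (-0.13 to 0.21), Ndufa4 (-0.14 to 0.18), Sdhc (-0.15 to 0.0241) and Sdhd (-0.17 to 0.0591). The ratio differences ran from 1.08 to 2.23 for Ndufa4l2 to Ndufa4 and from 0.95 to 3.09 for Cox4i2 to Cox4i1. Small fold changes of low genes such as Cox4i2, Cox7a1, Atp5g2 and Atp5l cannot be seen at the counts they had.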
